A study of Rattus norvegicus with 6 samples.

Results

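The genes described here are 10 members of the transforming growth factor beta (TGF-β) system, taken by gene name from a table of 30562 rat genes. They are the ligands Tgfb1, Tgfb2 and Tgfb3, the receptors Tgfbr1, Tgfbr2 and Tgfbr3, the latent binding proteins Ltbp1 and Ltbp2, the inhibitor Smad7 and the target gene Ccn2. All 10 were found once in the table and all 10 passed the filter on low counts, with 297 or more reads in every library. Reads were counted per gene in 6 libraries of rat intervertebral disc, 3 labelled Control and 3 labelled AF-PTK@LEV@SPP1. By the study's methods the discs came from male Sprague-Dawley rats, whose tail disc between coccygeal vertebrae 6 and 7 was punctured with an 18 G needle at 12 weeks of age. Both groups carried this injury, and the genotype is given as WT. AF-PTK@LEV@SPP1 is a vesicle made by fusing liposomes with bacterial outer membrane vesicles, which bears a peptide for the annulus fibrosus on a linker cut by reactive oxygen species and carries an siRNA against Spp1 (10 μL into the disc, 1 mg/kg of siRNA, begun 24 h after surgery). The methods describe controls injected with PBS and RNA from disc tissue, and the treatment is described as running over 8 weeks without a time of sampling for RNA, whereas the sample records describe untreated controls, 14 days of treatment and sorted macrophages of mice. The matrix genes Col2a1 and Acan of cartilage were counted at 13870 to 31980 and at 2305 to 7450 normalized CPM across the libraries. Adgre1 and Itgam, which encode the macrophage proteins F4/80 and CD11b that the sorting in the records would have used, were at 15.3 to 42.9 and at 15.2 to 100.

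TGF-β is secreted as a latent complex in which the mature ligand is held by its own propeptide, and latent TGF-β binding proteins tether that complex to fibrillin microfibrils of the matrix. Released ligand binds the type II receptor Tgfbr2, which phosphorylates the type I receptor Tgfbr1, and SMAD proteins then carry the signal to the nucleus. In the intervertebral disc the pathway is known for its part in matrix synthesis and in growth of the annulus fibrosus and nucleus pulposus, the fibrous ring and the gelatinous core of the disc.

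The libraries held 17942989, 16565291 and 17489851 counts in control replicates 1, 2 and 3, and 17074981, 15560728 and 17855184 in replicates 1, 2 and 3 labelled AF-PTK@LEV@SPP1. Levels are given as normalized CPM, which are read counts scaled to a common library size (CPM) by the trimmed mean of M-values in edgeR. The siRNA target Spp1 stood at 8123, 4411 and 4417 normalized CPM in control replicates 1, 2 and 3, and at 8054, 6903 and 8461 in the AF-PTK@LEV@SPP1-labelled libraries. No AF-PTK@LEV@SPP1-labelled library had less Spp1 than control replicates 2 and 3, and the difference was within the spread (edgeR's quasi-likelihood test: log2 fold change 0.31, standard error (SE) 0.37, adjusted p = 0.628), so groups are called by their labels and every direction is relative to them. The siRNA is described as directed against mouse Spp1, while the reads were counted on rat genes.

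Control replicates 2 and 3 were nearly the same library. Over 14393 genes their counts varied 1.33 times as much as counting noise, and 0.111% of the genes differed, against ratios of 51.3 to 107 and 39.6% to 56.6% of genes for the 5 remaining pairs of the same label. The pair was therefore counted as 1 sample, which leaves n = 2 distinct control samples and n = 3 labelled AF-PTK@LEV@SPP1. A two-sided exact permutation test of 3 against 2 cannot give a p below 0.1.

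By edgeR over the 5 distinct samples, Ltbp2 and Tgfbr1 were lower and Tgfbr3 was higher in the AF-PTK@LEV@SPP1-labelled libraries. The other 7 genes did not pass the threshold of an edgeR adjusted p under 0.05. Of the 15537 genes tested over the 5 distinct samples, 400 (2.57%) were called lower and 175 (1.13%) higher. Among the 10 genes of the system 2 were called lower and 1 higher, and their median log2 fold change was -0.33 against 0.05 over all genes tested. With the 6 libraries kept apart, the nearly identical control pair counts as 2 samples. In that fit 5 of the 10 were called lower and 1 higher, where 9.93% of 15042 genes were called lower and 8.2% higher. Tgfb1, Tgfb2 and Tgfbr2 were the genes added by that fit, and the log2 fold changes of Tgfbr1, Tgfbr3 and Ltbp2 were -0.98, 1.26 and -3.08 in it. Over the 5 distinct samples DESeq2 called the same 6 genes, where it called 9.27% of all genes tested lower and 7.29% higher. Limma-voom called Tgfbr1, Tgfbr3 and Ltbp2 alone among the 10. In 5 of the 10 genes each AF-PTK@LEV@SPP1-labelled library lay below every control sample and in 1 every library lay above, as was the case for 21.9% and 23.9% of all genes tested. The genes were chosen with earlier results of these libraries known, so these counts are a description. In bulk tissue, fewer cells of a type and less RNA per cell cannot be told apart.

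The calls rested on few samples. Without control replicates 2 and 3 the test called 3 genes in all, without control replicate 1 it called 280, and without replicate 1 labelled AF-PTK@LEV@SPP1 it called 113. Without replicate 2 or without replicate 3 of that label edgeR called 0 genes, although 3109 and 2699 genes had an unadjusted p under 0.05. None of the 10 genes was called without replicate 1, 2 or 3 labelled AF-PTK@LEV@SPP1. In these fits 6, 5 and 5 of the 10 had an unadjusted p under 0.05. Over all genes tested the same fits gave 3998 of 15363, 3109 of 15208 and 2699 of 15228. With 1 control sample left, the log2 fold change of Ltbp2 was -3.35 without control replicate 1 and -2.39 without control replicates 2 and 3.

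**Figure D1:**
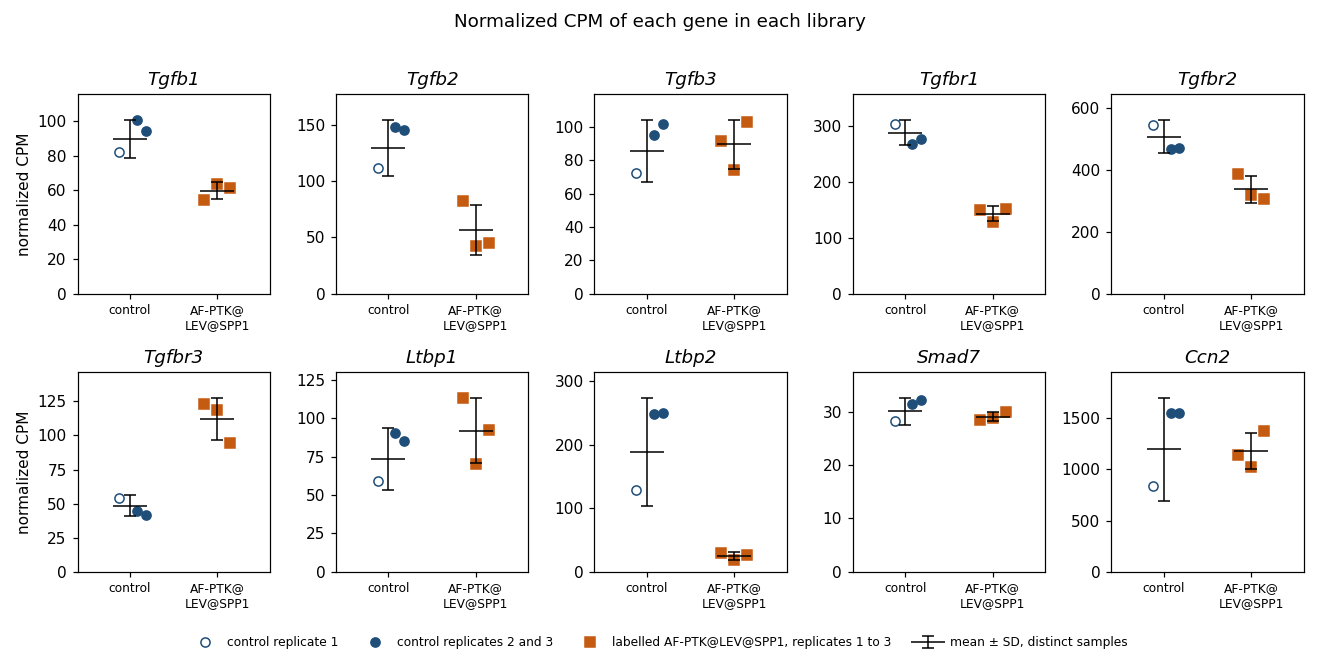
Normalized CPM (vertical axes, each starting at 0) of the 10 genes in each of the 6 libraries, by label; points are libraries, and the black bars are mean ± SD over 2 distinct control samples and 3 samples labelled AF-PTK@LEV@SPP1. Ltbp2 lies between 17.9 and 29.1 in the AF-PTK@LEV@SPP1-labelled libraries and between 129 and 250 in the controls, while the points of Tgfb3, Ltbp1, Smad7 and Ccn2 overlap between the labels.

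With edgeR the ligands did not pass the threshold over the 5 distinct samples. DESeq2 called Tgfb1 and Tgfb2 lower on the same samples (DESeq2 adjusted p = 0.00293 and 0.013). Tgfb1 (ENSRNOG00000020652, chromosome 1 from 81196532 to 81212847 in the table, whose genome build is not named) encodes the ligand that is best known from immune cells, platelets and fibrosis. Tgfb1 was at 81.9, 100.5 and 94.3 normalized CPM in control replicates 1, 2 and 3 and at 54.0, 63.8 and 61.5 in replicates 1, 2 and 3 labelled AF-PTK@LEV@SPP1. The groups did not overlap, and the mean was 59.8 ± 5.09 (SD, n = 3) against 89.6 ± 11 (SD, n = 2). Its log2 fold change was -0.59 (95% interval -0.93 to -0.25, edgeR adjusted p = 0.0794), and -0.62 with the 6 libraries kept apart, where it passed (edgeR adjusted p = 0.0175, 0.00293 to 0.289 over the alternatives).

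Tgfb2 (ENSRNOG00000002418, chromosome 13 from 98160087 to 98261405), a ligand that binds the signaling receptors weakly without betaglycan, was at 112, 148 and 146 normalized CPM in the controls. It was at 82.0, 42.7 and 45.1 in replicates 1, 2 and 3 labelled AF-PTK@LEV@SPP1. All 3 lay below the controls, with replicate 1 the highest of them. For Tgfb2 the log2 fold change was -1.20 (95% interval -2.04 to -0.37, edgeR adjusted p = 0.11), and the adjusted p was 0.0303 with the 6 libraries kept apart (0.013 to 0.353 over the alternatives). Tgfb3 (ENSRNOG00000009867, chromosome 6 from 105704236 to 105726564), a ligand known from tendon and palate development, was at 72.5, 95.3 and 102 in the controls and at 91.6, 74.0 and 103 in the AF-PTK@LEV@SPP1-labelled libraries. These ranges overlap, and the log2 fold change of 0.06 had an interval from -0.47 to 0.58 (edgeR adjusted p = 0.889).

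Within a library the ratio of the counts of a pair of genes does not depend on normalization. The log2 ratio of Tgfb3 to Tgfb1 was -0.18, -0.08 and 0.11 in control replicates 1, 2 and 3 and 0.76, 0.21 and 0.74 in the AF-PTK@LEV@SPP1-labelled libraries. Every library with that label lay above every control, and the mean differed by 0.65 (two-sided exact permutation test over the distinct samples, p = 0.2, adjusted over 3 ratios 0.3). The log2 ratio of Tgfb2 to Tgfb1 was 0.45, 0.56 and 0.63 in the controls and 0.60, -0.58 and -0.45 in the AF-PTK@LEV@SPP1-labelled libraries. Replicate 1 with that label lay among the controls and the other two below them (exact permutation test, p = 0.4, adjusted 0.4).

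Among the receptors Tgfbr1 fell and Tgfbr3 rose. Tgfbr1 (ENSRNOG00000007036, chromosome 5 from 61653233 to 61710777), the type I receptor kinase that phosphorylates SMAD2 and SMAD3, was at 305, 269 and 277 normalized CPM in control replicates 1, 2 and 3. In replicates 1, 2 and 3 labelled AF-PTK@LEV@SPP1 it was at 150.1, 128 and 153. The spread within each label was small beside the gap between them, and the mean was 2.01-fold lower, at 144 ± 13.5 (SD, n = 3) against 289 ± 22.5 (SD, n = 2). This gave a log2 fold change of -1.02 (SE 0.14, edgeR adjusted p = 0.0341). With any of the 5 distinct samples left out it lay between -1.09 and -0.94, with an adjusted p of 0.0715 to 0.152.

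Tgfbr2 (ENSRNOG00000013265, chromosome 8 from 115794537 to 115883228), the type II receptor kinase that binds the ligand first, was at 545, 468 and 469 normalized CPM in the controls and at 387, 317 and 306.5 in the AF-PTK@LEV@SPP1-labelled libraries. The groups did not overlap, and the log2 fold change was -0.60 (95% interval -1.03 to -0.16, edgeR adjusted p = 0.119, 0.0416 with the 6 libraries kept apart, 0.011 to 0.31 over the alternatives). The log2 ratio of Tgfbr1 to Tgfbr2 was -0.84, -0.80 and -0.76 in the controls and -1.37, -1.31 and -1.01 in the AF-PTK@LEV@SPP1-labelled libraries. The counts of Tgfbr1 were thus lower relative to those of Tgfbr2 in every library with that label, by 0.42 on average on the log2 scale. The exact permutation test gave a two-sided p of 0.2 (adjusted over 3 ratios 0.3). With 3 samples against 2 its p cannot fall below 0.1, so it cannot decide whether the ratio differs.

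Tgfbr3 (ENSRNOG00000002093, chromosome 14 from 2489397 to 2663341) encodes betaglycan, a co-receptor without a kinase that presents ligand, TGF-β2 above all, to the signaling receptors and that can be shed as a soluble trap. Tgfbr3 was at 53.9, 44.5 and 41.9 normalized CPM in control replicates 1, 2 and 3 and at 123, 119 and 94.4 in the AF-PTK@LEV@SPP1-labelled libraries. Every library with that label lay above every control, and the mean was 2.31-fold higher, at 112 ± 15.4 (SD, n = 3) against 48.5 ± 7.55 (SD, n = 2). Tgfbr3 thus had a log2 fold change of 1.20 (SE 0.18, edgeR adjusted p = 0.0391). The adjusted p was 0.058 when counts were scaled by library size alone, and 0.0736 to 0.181 with any of the 5 distinct samples left out.

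**Figure D2:**
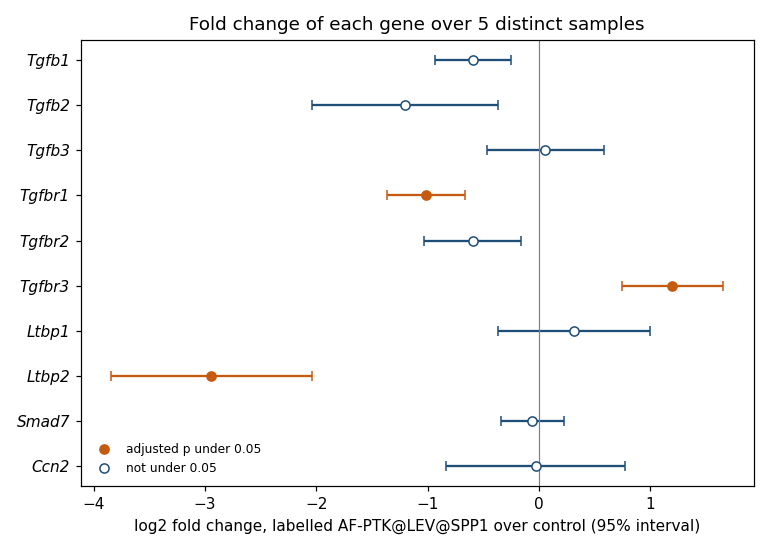
Log2 fold change (horizontal axis) of the 10 genes in the AF-PTK@LEV@SPP1-labelled libraries over the controls, over 5 distinct samples, with the approximate 95% interval from edgeR's quasi-likelihood fit; filled points had an adjusted p under 0.05. Tgfbr1 at -1.02 and Tgfbr3 at 1.20 lie on opposite sides of 0, and Ltbp2 lies lowest at -2.94.

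Of the latent binding proteins Ltbp2 passed the threshold and Ltbp1 did not, and the difference between their fold changes was not tested. Ltbp2 (ENSRNOG00000012094, chromosome 6 from 104429947 to 104526208) is the family member that does not bind latent TGF-β itself and sits on fibrillin microfibrils in elastic tissues. Ltbp2 was at 129, 248 and 249.6 normalized CPM in control replicates 1, 2 and 3 and at 29.1, 17.9 and 27.2 in the AF-PTK@LEV@SPP1-labelled libraries. Control replicate 1 lay well below the other control libraries and still far above every AF-PTK@LEV@SPP1-labelled library. The mean was 7.63-fold lower, at 24.7 ± 5.98 (SD, n = 3) against 189 ± 84.9 (SD, n = 2), and the log2 fold change was -2.94 (SE 0.36, edgeR adjusted p = 0.0276). With any of the 5 distinct samples left out it lay between -3.35 and -2.39. Ltbp1 (ENSRNOG00000033090, chromosome 6 from 20029629 to 20425349), which covalently binds the latent complex, was at 59.1, 90.5 and 85.0 in the controls and at 113, 70.5 and 92.4 in the AF-PTK@LEV@SPP1-labelled libraries. These values overlap, and the log2 fold change of 0.32 had an interval from -0.37 to 1.00 (edgeR adjusted p = 0.5).

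The 3 tested genes whose pattern over the 5 distinct samples was nearest to that of Ltbp2 were Abcb1b, Crabp2 and Adamts4, with root mean square differences of 0.08, 0.09 and 0.15 in centred log2 CPM. Abcb1b encodes a drug efflux pump, Crabp2 a carrier of retinoic acid and Adamts4 an aggrecan-cleaving protease. Adamts4 was at 37.4, 89.2 and 86.5 normalized CPM in control replicates 1, 2 and 3 and at 8.29, 6.64 and 9.29 in the AF-PTK@LEV@SPP1-labelled libraries. They were picked for this likeness, so their values, direction included, are a description.

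Smad7 and Ccn2, both known to be induced by TGF-β, did not pass the threshold. Smad7 (ENSRNOG00000018359, chromosome 18 from 68988429 to 69016765), the inhibitory SMAD that blocks the type I receptor, was at 28.3, 31.4 and 32.2 normalized CPM in the controls and at 28.3, 28.7 and 30.0 in the AF-PTK@LEV@SPP1-labelled libraries. The interval of its log2 fold change of -0.06 ran from -0.34 to 0.22 (edgeR adjusted p = 0.768). Ccn2 (ENSRNOG00000015036, chromosome 1 from 20802199 to 20805734), connective tissue growth factor, a matricellular protein long used as a readout of TGF-β and of mechanical load, was at 839, 1550 and 1545 in the controls and at 1137, 1021 and 1370 in the AF-PTK@LEV@SPP1-labelled libraries. Control replicate 1 was the lowest and the other control libraries the highest of the 6. For Ccn2 the log2 fold change was -0.03 (95% interval -0.84 to 0.78, edgeR adjusted p = 0.96), and 0.01 with library size alone.

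Of 18 genes of latency and activation, all tested, 4 were called lower and 0 higher over the 5 distinct samples, with a median log2 fold change of -0.36 against 0.05 over all genes tested. With the 6 libraries kept apart 7 were lower and 0 higher, where edgeR called 9.93% of all genes tested lower and 8.2% higher. Its shares over the 5 distinct samples were 2.57% lower and 1.13% higher. Over the 5 distinct samples limma-voom called 1 of the 18, DESeq2 called 7 lower and 1 higher, and 8 were lower and 1 higher at an unadjusted p under 0.05. Of all genes tested, limma-voom called 2.92% and DESeq2 called 9.27% lower and 7.29% higher, while 13% were lower and 12.4% higher at an unadjusted p under 0.05. Fbn2, a fibrillin that anchors latent complexes, was at 10.7, 34.9 and 38.5 normalized CPM in control replicates 1, 2 and 3 and at 1.59, 1.99 and 1.71 in the AF-PTK@LEV@SPP1-labelled libraries (log2 fold change -3.76, edgeR adjusted p = 0.0381). The proteases Mmp14 and Mmp2, both able to release latent TGF-β, had log2 fold changes of -2.50 and -2.39 (edgeR adjusted p = 0.026 and 0.0444). Emilin1, a matrix glycoprotein known to restrain processing of the TGF-β precursor, had one of -1.34 (edgeR adjusted p = 0.0483). These 4 thus include proteins that release the ligand and a protein that restrains it. Furin, the protease that cleaves the TGF-β precursor, just missed the threshold, at a log2 fold change of -0.65 (edgeR adjusted p = 0.0509).

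Of 11 co-receptors and extracellular inhibitors, 10 were tested, with a median of -0.29. Over the 5 distinct samples edgeR called 1 lower and 0 higher (2.57% and 1.13% of all genes tested). Aspn, a small proteoglycan that binds TGF-β1 and is known from disc degeneration, was at 376, 785 and 789 normalized CPM in the controls and at 121, 67.3 and 105 in the AF-PTK@LEV@SPP1-labelled libraries (log2 fold change -2.58, edgeR adjusted p = 0.0419). With the 6 libraries kept apart 3 were called lower and 2 higher (9.93% and 8.2% of all genes tested), the latter being Bambi and Cd109. Limma-voom called 0 of the 10, DESeq2 called 5, and 5 had an unadjusted p under 0.05. Tgfbr3l was listed at 0 in all 6 libraries. None of 18 SMADs and intracellular regulators was called by edgeR, with a median of -0.09. Of these 18, 7 had an unadjusted p under 0.05, and 0 were called by limma-voom, 4 by DESeq2 and 4 by edgeR with the 6 libraries kept apart. Over all genes tested, the unadjusted share was 25.4%, and limma-voom called 2.92% and DESeq2 16.6%.

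Of 22 response genes 20 were tested, with a median of -0.62. Over the 5 distinct samples edgeR called 1 lower and 0 higher (2.57% and 1.13% of all genes tested). Postn, which encodes the matricellular protein periostin, was at 5376, 8925 and 8979 normalized CPM in the controls and at 205, 149 and 323 in the AF-PTK@LEV@SPP1-labelled libraries. Postn had a log2 fold change of -5.00 (SE 0.47, edgeR adjusted p = 0.0196). With the 6 libraries kept apart, 9 response genes were called lower and 0 higher (9.93% and 8.2% of all genes tested). Over the 5 distinct samples limma-voom called 1 of the 20 (2.92% of all genes tested). DESeq2 called 9 lower and 0 higher (9.27% and 7.29%), and 11 were lower and 1 higher at an unadjusted p under 0.05 (13% and 12.4%). Of the 5 other CCN genes none was called by edgeR or limma-voom over the 5 distinct samples, 2 had an unadjusted p under 0.05, and 1 was called by DESeq2 and 1 by edgeR with the 6 libraries kept apart. The row named Junb is annotated as a pseudogene and stood at 0, so Junb was not measured.

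Markers of other cells also differed between the libraries. Of 9 osteoclast markers 5 were called lower and 0 higher, and the summed level was 6571 normalized CPM in control replicate 1, 4316 in the mean of control replicates 2 and 3, and 1183, 1145 and 812 in the AF-PTK@LEV@SPP1-labelled libraries. Ctsk had the highest normalized CPM of them except in replicate 3 with that label, where Mmp9 was at 287.1 and Ctsk at 286. The called osteoclast markers were Acp5, Ctsk, Mmp9, Dcstamp and Atp6v0d2. With the 6 libraries kept apart 6 osteoclast and 3 macrophage markers were called lower and 0 higher (9.93% and 8.2% of all genes tested). Over the 5 distinct samples limma-voom called 4 osteoclast and 2 macrophage markers (2.92% of all genes tested). DESeq2 called 7 and 4 of them lower and 0 higher (9.27% and 7.29%). The share of all genes called by edgeR over these samples was 2.57% lower and 1.13% higher. Of 14 macrophage markers, 13 of them tested, Cd68 and Cd14 were called lower and none higher, and the sum was 3224 and 2165 in the control samples and 732, 2032 and 2038 in the AF-PTK@LEV@SPP1-labelled libraries, with Lyz2 the most abundant and Marco at 0. Cd163, also of the macrophage list, was not called and had a higher mean in the AF-PTK@LEV@SPP1-labelled libraries (edgeR adjusted p = 0.246). Cd163 was at 54.03 and 29.26 normalized CPM in the control samples and at 47.16, 142.5 and 88.33 in those libraries, so the groups overlapped. The called markers were lower in the same libraries as Ltbp2 and Tgfbr1, and the part of osteoclasts and macrophages in those fold changes was not tested.

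The summed levels of other lists were high in some of the libraries in which Tgfbr3 was high, without any of their genes being called by edgeR over the 5 distinct samples. Of the 35 tested genes of these lists for nerve, fat, notochord and blood, 20 were higher and 1 lower at an unadjusted p under 0.05 (12.4% and 13% of all genes tested), limma-voom called 0 (2.92%), DESeq2 called 23 higher and 1 lower (7.29% and 9.27%), and edgeR with the 6 libraries kept apart called 10 higher and 1 lower (8.2% and 9.93%). The lower gene was Car12 of the notochord list each time, at 73.6 and 73.0 normalized CPM in the control samples and at 42.0, 26.1 and 29.9 in the AF-PTK@LEV@SPP1-labelled libraries. The 9 Schwann cell and nerve markers summed to 521 and 576 normalized CPM in the control samples and to 854, 1440 and 1994 in replicates 1, 2 and 3 labelled AF-PTK@LEV@SPP1. The 10 adipocyte markers summed to 1686 and 369 in the control samples and to 4376, 4775 and 2836 with that label, led by Car3. The 9 nucleus pulposus and notochord markers found in the table, of which Noto was at 0, summed to 856 and 439.8 in the control samples and to 4344, 1586 and 1905, led by Cd24. The sum was thus highest in replicate 1 labelled AF-PTK@LEV@SPP1, which also had the most Tgfb2 of the libraries with that label. Replicates 2 and 3 with that label held more blood genes, and their 8 erythroid markers summed to 20640 and 14130, led by Hba-a1, against 2397 to 3233 in the other samples. The 8 skeletal muscle markers found in the table summed to 10270 in replicate 2 with that label and to 975 to 2655 in the other samples, with Myh4 the most abundant in the control samples and Acta1 in the libraries with that label. The part of these cells in the values of the 10 genes was not tested.

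Of the remaining lists, annulus fibrosus and tendon had 1 gene called lower, Sfrp2, of 10 tested, and T and B cells had Cd8a and Cd2 called lower of 9 tested, with median log2 fold changes of 0.19 and -1.24 over the lists. These counts were 2 and 4 with the 6 libraries kept apart, with 0 higher (9.93% and 8.2% of all genes tested). For the same lists over the 5 distinct samples, limma-voom called 1 and 2 genes (2.92%). DESeq2 called 2 and 4 lower (9.27%) and 1 and 0 higher (7.29%). The share called lower by edgeR over these samples was 2.57% of all genes tested. None of the tested neutrophil, platelet and megakaryocyte, endothelial, smooth muscle and pericyte, skeletal muscle, osteoblast or chondrocyte markers, 65 in all, was called by edgeR, with median log2 fold changes of 1.98, 2.14, -0.44, 0.50, 1.96, -0.30 and -0.17. Of these 65, 7 were lower and 4 higher at an unadjusted p under 0.05 (13% and 12.4% of all genes tested), limma-voom called 0 (2.92%), DESeq2 called 5 lower and 2 higher (9.27% and 7.29%), and edgeR with the 6 libraries kept apart called 6 lower and 1 higher (9.93% and 8.2%). Gp1bb was at 0. Annulus fibrosus and tendon markers summed to 4235 and 10070 normalized CPM in control replicate 1 and the mean of control replicates 2 and 3, and to 5828, 3844 and 5393 in the AF-PTK@LEV@SPP1-labelled libraries. Control replicate 1 was thus the lower of the control samples in these markers, as it was in Ltbp2.

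The 250 bases before the start of each gene were read for the 10 genes from the RefSeq promoters of GRCr8, which held all 10, and those of the 3 called genes are shown because Tgfbr1 and Ltbp2 fell together while Tgfbr3 rose. Capitals mark each match, on either strand, to any of 5 motifs. The core of a SMAD site was searched as CAGAC and that of an SP1 site as GGGCGG. A site of the factor AP-1 was searched as TGAGTCA, a site of TEAD factors as GGAATG and the TATA box as TATAAA. In the windows shown no match overlapped another. Each runs 5′ to 3′ on the strand of its gene, at chr5:66449148-66449397 on the plus strand for Tgfbr1, chr14:2634044-2634293 on the plus strand for Tgfbr3 and chr6:110257299-110257548 on the minus strand for Ltbp2.
Tgfbr1: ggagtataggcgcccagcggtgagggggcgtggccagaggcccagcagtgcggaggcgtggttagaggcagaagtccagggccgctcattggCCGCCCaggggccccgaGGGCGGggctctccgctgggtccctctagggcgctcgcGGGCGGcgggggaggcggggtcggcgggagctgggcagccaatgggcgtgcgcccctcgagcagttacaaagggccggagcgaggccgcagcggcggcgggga
Tgfbr3: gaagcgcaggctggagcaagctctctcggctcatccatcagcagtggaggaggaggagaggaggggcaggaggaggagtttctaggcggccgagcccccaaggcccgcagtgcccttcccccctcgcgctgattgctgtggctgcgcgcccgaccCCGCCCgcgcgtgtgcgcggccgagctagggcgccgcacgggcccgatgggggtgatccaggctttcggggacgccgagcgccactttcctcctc
Ltbp2: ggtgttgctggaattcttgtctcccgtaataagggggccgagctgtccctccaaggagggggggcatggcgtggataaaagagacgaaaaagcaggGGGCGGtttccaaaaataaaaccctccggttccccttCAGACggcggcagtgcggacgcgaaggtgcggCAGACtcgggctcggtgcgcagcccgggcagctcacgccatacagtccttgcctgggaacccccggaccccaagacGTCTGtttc
The SMAD motif was found 3 times in the window of Ltbp2 and not in those of Tgfbr1 and Tgfbr3, and 42.9% of all 33469 promoters held it. The SP1 motif was found in all 3 windows, 3 times in that of Tgfbr1, and 30.5% of all promoters held it. The AP-1, TEAD and TATA motifs, held by 4.05%, 12.1% and 12.9% of all promoters, had no match in the 3 windows. Among the other 7 genes the SMAD motif was found once each in Ltbp1 and Ccn2, and the SP1 motif once in Tgfbr2, 2 times in Smad7 and 2 times in Ccn2. Ccn2 also held the TEAD motif 3 times and the TATA motif once, the AP-1 motif was in none of the 10, and Tgfb1, Tgfb2 and Tgfb3 held no match. A match describes letters in this window and no more.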

How the data were processed

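The authors deposited counts, whole numbers of reads per Ensembl rat gene in 6 libraries, without normalization. The submitters' processing notes name FastQC, Trimmomatic, HISAT2, featureCounts and DESeq2 with no versions, and the mouse build mm10, although the gene identifiers are of rat; the build behind the printed coordinates is not named, and use of strand in counting was not given in the sources used here. Replicates are separate animals by the study's methods. Of the count columns 3 carry the name of the treatment and 3 are named for the disc. The latter do not carry the label Control and were taken as the controls by inference, since the study names its PBS group after disc degeneration, and replicates were matched by number.

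The counts were fitted with edgeR 4.0.16 (R 4.3.3; trimmed mean of M-values, filterByExpr with a minimum count of 10, quasi-likelihood test, Benjamini-Hochberg adjustment over all genes), checked on simulated counts. Counts of control replicates 2 and 3 were summed as 1 sample. Intervals and standard errors were taken from the fold change and its F statistic. Normalized CPM came from the 6 libraries, and means used the mean of the pair. Log2 CPM used a prior count of 2, and ratios of counts an added 0.5. Of the 10 genes, the annotated span of Tgfb2 alone overlapped another gene, a snoRNA with 0 counts. Transcript lengths were not used, so levels are not compared between genes, except to name the gene with the most counts in a list. A gene named as the most abundant of a list, or as leading it, had the highest normalized CPM there, without correction for length.

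Named genes are the 10 members, Spp1, genes of the lists that passed the threshold, those needed to describe a list, and the 3 genes most like Ltbp2. Some genes of the lists are not reported here. The members and lists were chosen with earlier results of these data known. Alternatives were DESeq2 1.42.0, limma-voom (limma 3.58.1), other scalings and filters, a robust fit, a fold change threshold, the replicate block and samples left out.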

Additional observations from a re-analysis of the deposited data

How the results depend on the processing

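Of 17 alternatives, 10 gave a count of called genes within 1.5 times the 575 of the 5 distinct samples. With the 6 libraries kept apart 2727 genes and 6 of the 10 members were called, and with DESeq2 2572 genes and 6 members, the same 6. Leaving out any of the 5 distinct samples gave 0 to 280 genes and 0 to 1 members called, and these fits have fewer degrees of freedom. Leaving out control replicate 2 or 3 alone, which removes no distinct sample, gave 562 and 566 genes and 3 members. A sample left alone in its group is assumed to vary like the others. The replicate block on the 6 libraries gave 741 genes and 4 members, and libraries with the same number had correlations of -0.33, -0.28 and -0.08 between their deviations from the group means. Because control replicates 2 and 3 were nearly the same library, these correlations cannot show whether the numbers mark a pairing. Ltbp2, Tgfbr1 and Tgfbr3 kept their direction in all 16 alternatives run for single genes and were called in 12, 11 and 10 of them. Tgfb1, Tgfb2 and Tgfbr2 were lower in all 16 and called in 3, 2 and 2.

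The direction turned in some alternatives for Tgfb3, Ccn2, Smad7 and Spp1. The log2 fold change of Tgfb3 was -0.005 with the 6 libraries kept apart, -0.003 with the replicate block and -0.16 to 0.30 with a sample left out. That of Ccn2 was 0.061 with limma-voom, 0.01 with library size alone and -0.41 to 0.48 with a sample left out. With a sample left out, Smad7 ranged from -0.15 to 0.03 and Spp1 from -0.066 to 0.81. The cause was not tested. The ratios of counts kept their sign in all 8 alternatives each. The members had 297 or more reads in every library, and the common biological coefficient of variation was 0.302 over the 5 distinct samples.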
